A study of Mus musculus with 6 samples.

Results

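The dorsolateral prostate (DLP) was compared with the anterior prostate (AP) of a single mouse that overexpresses MYC, that is, the lobe with a raised level of Myc in the deposited table with the lobe whose level was close to that of wild-type tissue. The comparison rests on 2 of the 6 bulk RNA-seq libraries of the series, and the same lobes of a wild-type (WT) littermate, 2 further libraries, were set beside it. The MYC mouse was a male of the FVB strain, heterozygous for a human c-MYC transgene under ARR2Pb, a promoter derived from the probasin gene that is active in prostate epithelium. The WT mouse was of the same strain and carried no transgene. Both were 12 weeks old and were fed a purified diet after weaning. Each lobe was dissociated into a cell suspension, and RNA from an aliquot of it gave 1 library. AP and DLP of a genotype came from the same animal, so that no difference has a replicate check, no p-value was computed, and what separates the MYC from the WT lobe ratios cannot be told apart from what separates the 2 animals.

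Genes entered the comparison when their mean was at least 1 FPKM (fragments scaled to transcript length and to the mapped reads of the library) over the 6 libraries, which held for 12361 of the 24908 genes listed. Lobe differences are log2 ratios of DLP over AP after 1 FPKM was added to each value, which understates the change of genes at low levels. A gene is called higher or lower in DLP where this ratio is at least 2-fold. Depth was recovered from the steps in low FPKM values at about 50.2 M reads for MYC AP, 34.8 M for MYC DLP, 25.5 M for WT AP and 47.2 M for WT DLP. Counting intervals (exact 95% Clopper-Pearson) of the ratio of 2 libraries are given for leading genes. They cover counting error only, and not animals or dissections.

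The AP and the DLP are paired lobes of the mouse prostate whose luminal cells secrete different proteins into the seminal fluid under control of the androgen receptor. MYC is a transcription factor that, with its partner MAX, binds E-box sequences and raises genes of ribosome production, nucleotide synthesis and the cell cycle. In mice that express MYC from a probasin promoter, luminal cells are transformed to prostatic intraepithelial neoplasia, and lobes differ in how often this is seen.

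Sequences of 2 promoters are shown, that of the gene behind the transgene's promoter and that of a canonical MYC target. Pbsn (probasin) is the gene from which the promoter of the transgene derives, and its own transcript had one of the lowest MYC lobe ratios. Cdk4, a kinase that drives cells through G1, was among the canonical MYC targets called higher in MYC DLP. Both were chosen after their values and motif matches were seen, and the same window of Tgm4, whose MYC lobe ratio was lower than that of Pbsn, held 0 matches of AGAACA. Each stretch is the 250 bases upstream of the RefSeq transcript start (GRCm38.p6), chrX:77853501-77853750 on the minus strand for Pbsn and chr10:127063285-127063534 on the plus strand for Cdk4. Capitals mark AGAACA, a core of androgen response elements, in Pbsn, and the palindromic E-box CACGTG in Cdk4.
Pbsn promoter: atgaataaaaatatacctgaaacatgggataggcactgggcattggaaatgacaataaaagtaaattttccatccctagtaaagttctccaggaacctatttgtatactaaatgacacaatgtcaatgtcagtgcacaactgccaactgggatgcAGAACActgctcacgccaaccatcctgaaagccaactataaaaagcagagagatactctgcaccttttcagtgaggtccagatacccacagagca
Cdk4 promoter: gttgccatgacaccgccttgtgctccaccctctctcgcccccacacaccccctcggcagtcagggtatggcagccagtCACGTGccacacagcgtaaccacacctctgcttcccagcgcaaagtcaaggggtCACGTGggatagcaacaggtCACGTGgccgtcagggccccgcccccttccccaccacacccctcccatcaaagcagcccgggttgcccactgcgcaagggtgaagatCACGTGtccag
In these windows AGAACA occurred once upstream of Pbsn, starting at -95, and CACGTG occurred 4 times upstream of Cdk4, starting at -172, -118, -98 and -11. The motifs were then counted in RefSeq promoter windows from 250 bases before to 50 bases after each start, AGAACA on both strands. Of all 32851 promoters, 7.15% held CACGTG and 19.0% held AGAACA, and of the 12265 promoters of the genes compared, 9.99% and 12.5%. Among genes called higher in MYC DLP the shares were 5.99% and 17.4%, and among those called lower 6.13% and 14.9%. For comparison, CACGTG was present in 10 of 23 promoters (43.5%) of the list of other canonical MYC targets described below, and in 13.0% of those of the ribosome biogenesis list. A match is a description of the sequence and not a bound site.

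A limit of the AP side was a set of seminal vesicle transcripts. Svs4, a seminal vesicle secretory protein, was at 292.5 FPKM in MYC AP and 4.68 FPKM in MYC DLP, and Svs5 at 212.0 and 2.62 FPKM. Both were listed at 0 in WT AP and WT DLP. Of the 9 genes of the list, 3 entered the comparison, and the list summed to 524.1 FPKM in MYC AP, 11.3 FPKM in MYC DLP, 0.112 FPKM in WT AP and 0.186 FPKM in WT DLP, and Sva was listed at 0 in all 4. The seminal vesicle lies against the AP, and the part of such tissue in the other differences was not tested.

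Myc itself (chr15:61985341-61990361) was listed at 586.1 FPKM in MYC DLP and at 230.9 FPKM in MYC AP. In the WT mouse it was at 200.6 FPKM in DLP and 230.0 FPKM in AP. The library of MYC DLP therefore stood apart from the other 3, which lay within a narrow range. The MYC lobe ratio was 2.54-fold (counting interval 2.49 to 2.58), or 1.34 on the log2 scale, against -0.20 in WT. The lobes were chosen for this difference in Myc, so it is the starting point of the comparison and not a finding. Reads of the human transgene, where they map to the mouse gene, are summed with its own in the value listed for Myc. Under the scalings tried, the log2 ratio of Myc in the MYC mouse lay between 0.89 and 1.29.

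Across the 12361 genes, 561 (4.54%) were higher and 432 (3.49%) were lower in MYC DLP than in MYC AP. In the WT mouse, 476 (3.85%) were higher and 162 (1.31%) were lower in DLP. The median log2 ratio over all genes was 0.07 in MYC and 0.10 in WT, and the SD over genes was 0.69 and 0.58. The balance of the directions depended on scaling. With the libraries set to equal sums of FPKM, 363 genes were higher and 617 lower in MYC DLP, and 323 higher and 276 lower in WT DLP, and with size factors the counts were 491 and 448 in MYC and 359 and 223 in WT. The all-gene median in MYC was -0.13 with equal sums, -0.10 with equal sums without the 20 most abundant genes and -0.33 relative to Krt8 and Krt18, a shift that moves every gene and list alike. With WT AP in place of MYC AP, an alternative chosen after seeing the data, 1071 genes were higher and 402 lower in MYC DLP, and these included 465 of the 561 and 252 of the 432. The lists below are read against the all-gene median, and members under the filter are left out. No all-gene median was computed with WT AP on the AP side, so the list medians given for that side have no such background. A member that passed it only through the library where it is high had to differ, so the counts are descriptions.

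Most genes called in the MYC mouse were not called in the WT mouse, and the shares called in both, in the same or the opposite direction, were above those over all genes. Of the 561 genes higher in MYC DLP, 87 (15.5%, beside 3.85% of all genes) were also higher in WT DLP, which is 18.3% of the WT calls, and 31 (5.53%, beside 1.31%) were lower there. Of the 432 genes lower in MYC DLP, 60 (13.9%, beside 1.31% of all genes) were lower in WT DLP too, which is 37.0% of the WT calls, and 24 (5.56%, beside 3.85%) were higher there. The ratios had a Pearson correlation of 0.287 and a Spearman correlation of 0.315 across genes, which are not independent replicates, and 7890 of the 12361 genes had the same sign in both mice. For the 476 genes higher in WT DLP the median was 1.32 in WT and 0.45 in MYC, where 363 of them stayed above 0. For the 162 genes lower in WT DLP the median was -1.33 in WT and -0.33 in MYC, where 66 of them were above 0. Subtracting the WT from the MYC log2 ratio gave 623 genes (5.04%) at or above 1 and 636 (5.15%) at or below -1. This balance also depended on scaling, with 686 and 532 genes under size factors. Under equal sums without the 20 most abundant genes the counts were 526 and 780.

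**Figure D1:**
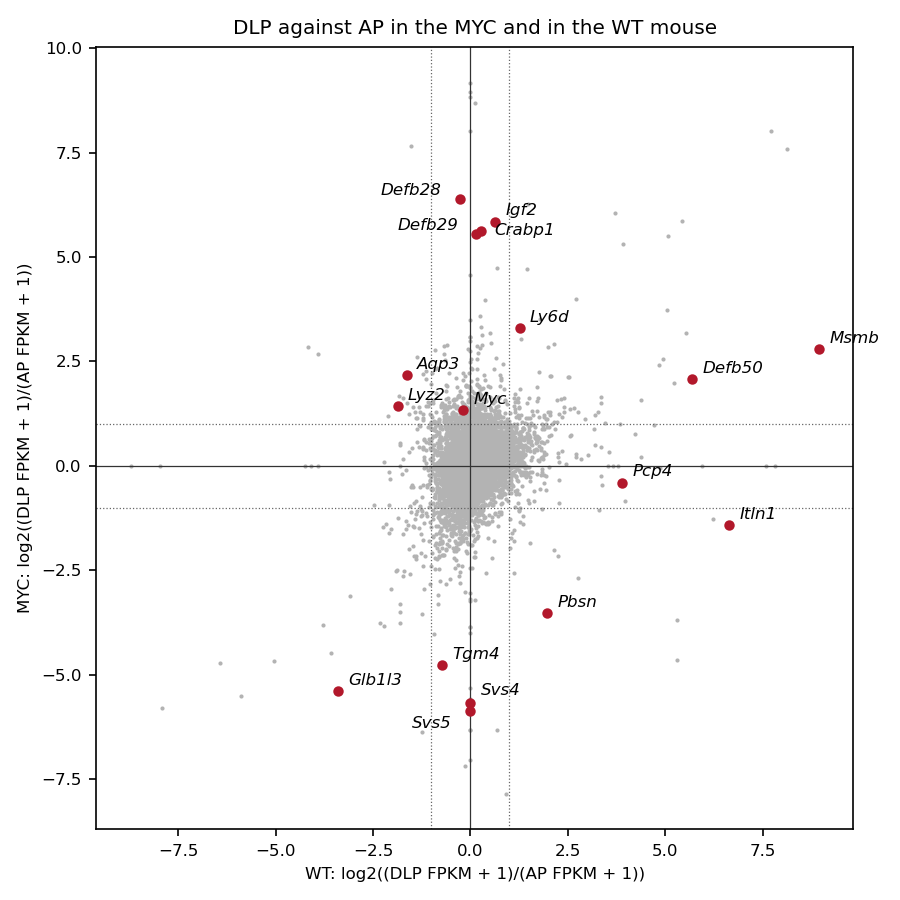
Log2 ratio of DLP over AP (FPKM + 1) in the WT mouse (horizontal) and in the MYC mouse (vertical) for each of the 12361 genes, with 1 library per lobe and genotype; dotted lines mark 2-fold. Pbsn and Itln1 lie to the lower right, higher in WT DLP and lower in MYC DLP, while Igf2, Crabp1, Defb28 and Defb29 lie near 0 in WT and above 5 in MYC. Unlabelled points farther out fall outside the rule for named genes or are not marked here.

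Secreted proteins of the prostate had large lobe differences in both directions. Of the 16 members compared of a list of 18, 6 were higher and 4 lower in MYC DLP, whereas 9 were higher and none lower in WT DLP, beside 4.54%, 3.49%, 3.85% and 1.31% of all genes. Their median log2 ratio was 0.47 in MYC and 1.28 in WT (1.90 in WT with a pseudocount of 0.1), and the MYC ratio was below the WT ratio by at least 2-fold in 9 and above it in 4. Of the 4 lower in MYC DLP, Pate4 is also on the seminal vesicle list, and 2 of the 6 higher are Sbp and Sbpl, near-identical copies whose separate values are uncertain. The list thus held members at both ends in the MYC mouse. Against WT AP, the median for MYC DLP was 2.83.

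Pbsn (chrX:77837898-77853500), an androgen-regulated lipocalin of the lateral and dorsal lobes, was at 14040 FPKM in WT DLP and 3597 FPKM in WT AP. In the MYC mouse it was at 267.3 FPKM in DLP and 3084 FPKM in AP. The WT AP and MYC AP values were similar, and MYC DLP was the lowest of the 4. DLP over AP was 3.90-fold (counting interval 3.87 to 3.94) in WT and 0.0867-fold (0.0843 to 0.0890) in MYC, log2 ratios of 1.96 and -3.52 with the 1 FPKM added. Tgm4, the prostate transglutaminase that cross-links seminal proteins to form the copulatory plug, was at 3016 FPKM in WT AP, 1804 FPKM in WT DLP, 2545 FPKM in MYC AP and 92.5 FPKM in MYC DLP. Of these 4 libraries only MYC DLP lay far from the rest, with a log2 lobe ratio of -4.77 against -0.74 in WT.

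Msmb, which encodes the seminal plasma protein beta-microseminoprotein, was at 16.4 FPKM in WT AP, 8601 FPKM in WT DLP, 48.7 FPKM in MYC AP and 345.9 FPKM in MYC DLP. Defb50, a beta-defensin, was at 361.2, 18600, 1147 and 4866 FPKM in the same order of libraries. Both were higher in DLP in each mouse, in the direction of the lobe labels, but the log2 ratio was 2.80 in MYC against 8.95 in WT for Msmb and 2.08 against 5.68 for Defb50. Their values in MYC AP were above those in WT AP, so that the smaller ratio came from both sides. Apof, an apolipoprotein, had log2 ratios of 0.77 in MYC and 4.23 in WT, and Azgp1, a zinc-binding glycoprotein, 0.26 and 3.03. Mmp7, a matrix metalloproteinase made by secretory epithelium, was at 62.1 FPKM in WT AP and 535.0 FPKM in MYC AP, while DLP was at 413.6 and 651.0 FPKM in WT and MYC, which gave log2 ratios of 2.72 and 0.28.

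Other genes that separated the lobes in WT differed less or were inverted in MYC. Itln1, an intelectin that binds microbial glycans, was at 647.4 FPKM in WT DLP and 5.45 FPKM in WT AP, but at 1.20 FPKM in MYC DLP and 4.90 FPKM in MYC AP. This was the largest difference between the mice by the rule used for naming genes, a log2 ratio of 6.65 in WT and -1.42 in MYC. Pcp4, a calmodulin-binding peptide, had log2 ratios of 3.90 in WT and -0.40 in MYC, and Tcaf3, a TRP channel-associated factor, 3.37 and -0.46. Upk1a, a uroplakin, stayed higher in DLP by a smaller margin, at 267.7 FPKM in DLP and 9.27 FPKM in AP of WT and at 58.1 and 29.1 FPKM in MYC, for log2 ratios of 4.71 and 0.97.

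Other genes were lower in MYC DLP than in the AP and DLP of WT and the AP of MYC. Glb1l3, a beta-galactosidase-like gene, was at 177.2 FPKM in WT AP, 15.8 FPKM in WT DLP, 147.3 FPKM in MYC AP and 2.52 FPKM in MYC DLP. It was low in DLP in both mice, with a log2 ratio of -3.41 in WT and -5.40 in MYC. Pnliprp1, a pancreatic lipase-related protein, was at 116.9, 70.2, 53.4 and 1.02 FPKM in the same order, and Gsdma, a gasdermin, at 80.8, 41.8, 70.9 and 3.36 FPKM. For these 2 genes the WT lobes differed by less than 2-fold, while the MYC log2 ratios were -4.75 and -4.04. Fcgbp, a mucin-like secreted protein, had a log2 ratio of -3.55 in MYC, Wnt2, a secreted Wnt ligand, -3.50, and Lamc3, a laminin chain, -3.32.

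**Figure D2:**
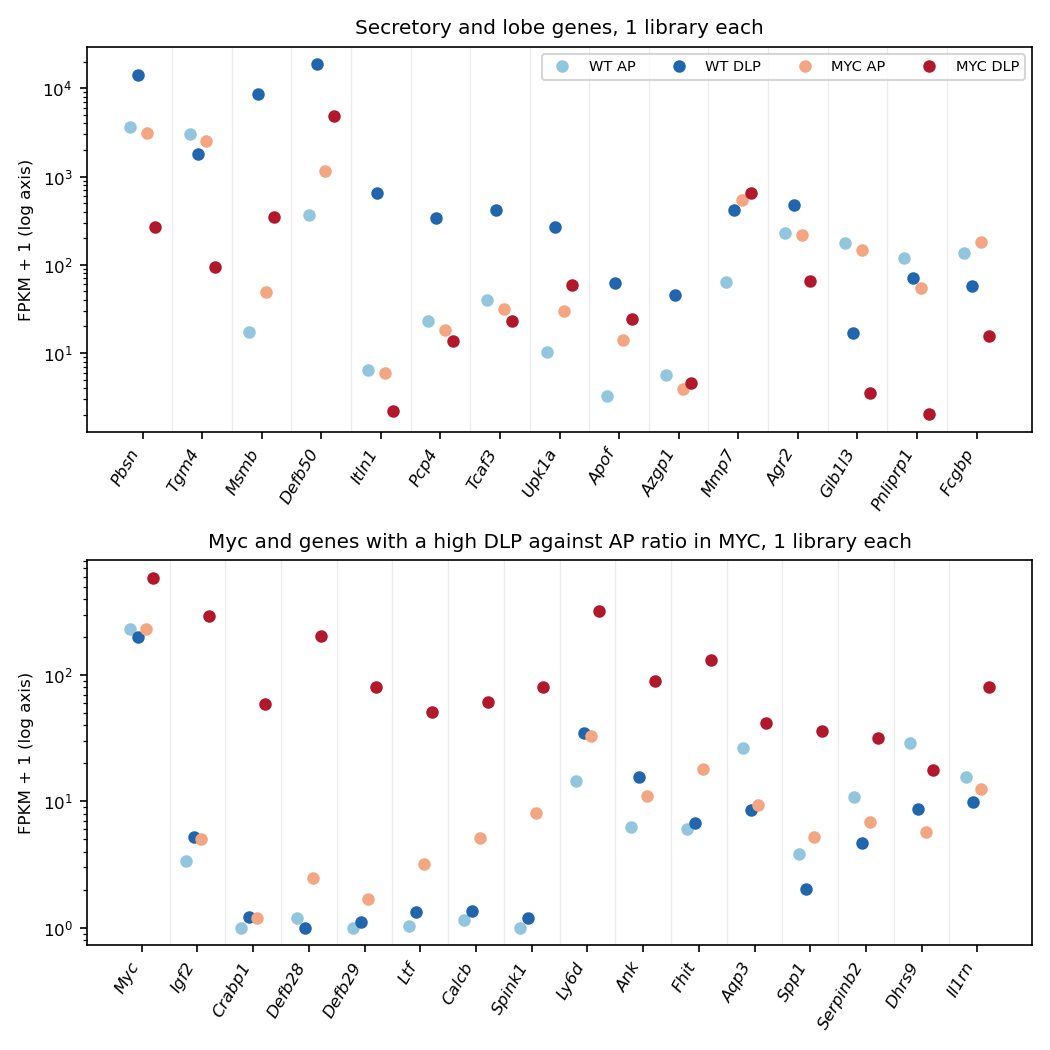
FPKM + 1 on a log axis for named genes in the AP and DLP libraries of the WT and the MYC mouse, 1 point per library. In the upper panel MYC DLP is the lowest point for Pbsn, Tgm4, Itln1, Pcp4, Tcaf3, Agr2, Glb1l3, Pnliprp1 and Fcgbp. In the lower panel it is the highest point for Myc and each gene shown other than Dhrs9, whose highest point is WT AP.

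The 10 genes with the highest MYC lobe ratios by the naming rule mostly had low values in both WT lobes. Most of them, such as Crabp1, Defb28, Defb29, Ltf, Calcb and Spink1, reached the mean of 10 FPKM that the rule asks for only through MYC DLP. For these a high MYC ratio and low values elsewhere followed from the rule. Igf2, the insulin-like growth factor 2, was at 290.1 FPKM in MYC DLP and 4.06 FPKM in MYC AP, and at 4.20 and 2.36 FPKM in WT DLP and AP. The ratio in MYC was 71.4-fold (counting interval 65.1 to 78.5). Crabp1, a retinoic acid-binding protein, was at 58.2 FPKM in MYC DLP and 0.20 FPKM in MYC AP, and WT was at 0.21 FPKM in DLP and listed at 0 in AP. The beta-defensin Defb28 was at 203.9 FPKM in MYC DLP and 1.47 FPKM in MYC AP, and its relative Defb29 at 79.6 and 0.70 FPKM. Neither passed 0.3 FPKM in a WT lobe, and both lie on chromosome 2, Defb28 at chr2:152518255-152521447 and Defb29 at chr2:152538714-152540041.

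Ltf, the iron-binding antimicrobial protein lactoferrin, was at 49.8 FPKM in MYC DLP and 2.22 FPKM in MYC AP, a log2 ratio of 3.98. Calcb, a calcitonin gene-related peptide, followed at 3.58, and Spink1, a secreted trypsin inhibitor, at 3.32. Ly6d, a surface protein of basal and stratified epithelium, was at 321.2 FPKM in MYC DLP, 32.0 FPKM in MYC AP, 33.7 FPKM in WT DLP and 13.5 FPKM in WT AP. Unlike the others it was also higher in WT DLP, with log2 ratios of 3.29 in MYC and 1.26 in WT, and the same held for Ank, a transporter of pyrophosphate, with 3.03 and 1.30. Fhit, a diadenosine triphosphate hydrolase, was at 130.3 and 17.0 FPKM in MYC DLP and AP and at 5.79 and 5.08 FPKM in WT. Their levels varied in a further lobe. The ventral prostate (VP) held Crabp1 at 682.6 FPKM in MYC and 97.7 FPKM in WT, and Spink1 at 285.3 FPKM in MYC and 25230 FPKM in WT, whereas Calcb was at 1.51 FPKM and Ltf at 2.01 FPKM in MYC VP, 40.0-fold and 24.7-fold below MYC DLP.

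Sbp and Sbpl, which encode spermine-binding proteins, were at 877.6 and 196.8 FPKM in MYC DLP and at 32.6 and 6.42 FPKM in MYC AP. They are near-identical copies whose reads may have been divided between them, so that their separate values are uncertain. MYC VP held Sbpl at 20150 FPKM but listed Sbp at 0, and both were listed at 0 in WT VP, so that their values in the VP cannot be relied on. How far tissue of the VP entered the DLP library was not tested.

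The median of the androgen response genes was near that of all genes, while single members differed. Of 29 genes compared, 1 was higher and 4 were lower in MYC DLP, with a median log2 ratio of -0.09, and 4 were higher and none lower in WT DLP, with a median of 0.22. The 4 lower in MYC DLP and the 4 higher in WT DLP were larger shares than the 3.49% and 3.85% of all genes. The named members were at the edges of the list. Hpgd, which inactivates prostaglandins, was at 55.9 FPKM in WT DLP and 18.8 FPKM in WT AP, and at 8.74 FPKM in MYC DLP and 34.1 FPKM in MYC AP. The direction was thus opposite, with log2 ratios of 1.52 in WT and -1.85 in MYC. Acsl3, an acyl-CoA synthetase, and Sord, sorbitol dehydrogenase, were lower in MYC DLP with log2 ratios of -1.47 and -1.46, and Aldh1a3, a retinaldehyde dehydrogenase, was higher with 1.69. Sgk1, a kinase and the most abundant member, had 0.18.

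Over 16 genes, the androgen receptor and luminal transcription factors were at a median of 0.07 in MYC, the same as that of all genes, and shifted with it to -0.16 with equal sums of FPKM, to -0.12 without the 20 most abundant genes and to -0.37 relative to Krt8 and Krt18. In MYC, 1 of the 16 was higher and 1 lower, close to the 4.54% and 3.49% of all genes. The higher one was Elf3, an epithelial ETS factor, at 85.3 FPKM in MYC DLP and 35.3 FPKM in MYC AP. Foxa1, a pioneer factor of the androgen receptor, was at 107.0 FPKM in MYC DLP and 106.4 FPKM in MYC AP. The factor Klf5 had a log2 ratio of 0.65 in MYC and -0.37 in WT.

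The lists of MYC network genes and canonical targets had MYC medians above that of all genes. In all, 4 genes passed 2-fold, among them Myc, for whose level the lobes were chosen. Of 10 genes of the MYC and MAX network, 2 were higher, beside 4.54% of all genes. They were Myc, which had to be higher by that choice, and Mxd1, a MAX partner that antagonises MYC. Mxd1 was at 23.6 FPKM in MYC DLP and 10.9 FPKM in MYC AP. None of 25 ribosome biogenesis genes passed 2-fold in either direction in either mouse, and their median log2 ratio was 0.39 in MYC and 0.11 in WT, with 18 and 16 members above 0. Npm1, the nucleolar protein nucleophosmin and the most abundant member by the naming rule, had a ratio of 1.36-fold in MYC and 0.909-fold in WT. Of 20 other canonical MYC targets, 2 were higher in MYC DLP, where 4.54% of all genes were, and the median was 0.35 in MYC and 0.00 in WT. Relative to Krt8 and Krt18, the medians of these 3 lists in MYC were -0.12, -0.01 and -0.10, below 0 but still above the all-gene median of -0.33. With WT AP on the AP side the list medians were 0.22, 0.06 and 0.22, with no all-gene median to read them against.

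Cdk4, whose promoter is shown above, was at 79.2 FPKM in MYC DLP and 38.6 FPKM in MYC AP, and at 35.2 and 28.6 FPKM in WT DLP and AP. The values of the other 3 libraries were close to each other, and the MYC ratio was 2.05-fold (counting interval 1.93 to 2.18) against 1.23-fold in WT. Cad, the enzyme that starts pyrimidine synthesis, was at 8.07 and 3.47 FPKM in MYC DLP and AP and at 6.51 and 3.54 FPKM in WT, so that its lobe difference was present in both mice. Eif4a1, a translation initiation helicase, had log2 ratios of 0.34 and -0.14. The median over 83 ribosomal protein genes was 0.70 in MYC and 0.32 in WT. Of these 9 were higher and 1 lower in MYC DLP, beside 4.54% and 3.49% of all genes. The single lower value was that of Rpl26, whose reads may be shared with near-identical copies, and Rps28 and Rps26 were at 1.16 and 1.13.

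Cell cycle genes, many of them low in WT, included members past 2-fold in MYC. Of 35 G2/M phase genes compared, of a list of 44, 21 were higher and none lower in MYC DLP, beside 4.54% and 3.49% of all genes. In WT DLP 1 of these 35 was higher and none lower, beside 3.85% and 1.31%. The median log2 ratio of the list was 1.13 in MYC and -0.06 in WT. A MYC ratio at least 2-fold above the WT ratio was found for 20 members, beside 5.04% of all genes. Of 34 of 43 S phase genes compared, 7 were higher and none lower in MYC DLP, beside 4.54% and 3.49% of all genes. The S phase medians were 0.74 in MYC and 0.00 in WT. Among S phase genes of at least 10 FPKM the MYC median was 0.06. With WT AP in place of MYC AP the medians of the lists were 1.96 and 0.98. Members such as Bub1b, a spindle checkpoint kinase at 0.056 and 0.067 FPKM in AP and DLP of WT, passed the filter through the MYC libraries. The levels of most G2/M members were low, and the 1 FPKM added to each value compresses their ratios.

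Ube2c, the ubiquitin-conjugating enzyme of the anaphase-promoting complex, was at 22.9 FPKM in MYC DLP and 6.16 FPKM in MYC AP, and at 0.61 and 0.22 FPKM in WT DLP and AP. Both MYC lobes were thus above both WT lobes, with DLP above AP. Without the added 1 FPKM the MYC ratio was 3.71-fold (counting interval 3.32 to 4.16). Cdc20, an activator of the same complex, was at 9.05 and 2.44 FPKM in MYC DLP and AP and at 0.60 and 0.55 FPKM in WT. Ccnb2, a mitotic cyclin, had a ratio of 3.71-fold (3.02 to 4.55), and Cenpa, the histone of the centromere, 3.86-fold (3.02 to 4.98). Mki67, the proliferation marker Ki-67, named here after its value was seen, was at 10.4 FPKM in MYC DLP, 3.60 FPKM in MYC AP, 0.72 FPKM in WT DLP and 0.69 FPKM in WT AP. Tubb4b, a tubulin and the most abundant member, differed little, with a log2 ratio of 0.12.

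Of the 6 Mcm genes of the replicative helicase on the S phase list, 3 were higher in MYC DLP. Mcm2 was at 9.63 and 3.81 FPKM in MYC DLP and AP, Mcm6 at 11.1 and 4.62 FPKM and Mcm5 at 7.10 and 2.77 FPKM. Mcm3 and Mcm7 had log2 ratios of 0.83 and 0.93, and Mcm4, at 9.94 and 9.77 FPKM, one of 0.02. Gins2, a helicase cofactor, was at 7.22 and 2.64 FPKM. In WT the DLP and AP values of Mcm2, Mcm5, Mcm6 and Gins2 all lay between 0.93 and 2.62 FPKM, with log2 ratios between -0.14 and 0.31, while Mcm4 was at 7.32 and 10.9 FPKM. Pcna, the replication clamp and the most abundant member, had log2 ratios of 0.18 and -0.10. None of 9 D cyclins and CDK inhibitors passed 2-fold in MYC, where Cdkn1a, the inhibitor p21, was at 90.0 FPKM in DLP and 53.9 FPKM in AP, and at 55.1 and 74.8 FPKM in WT.

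**Figure D3:**
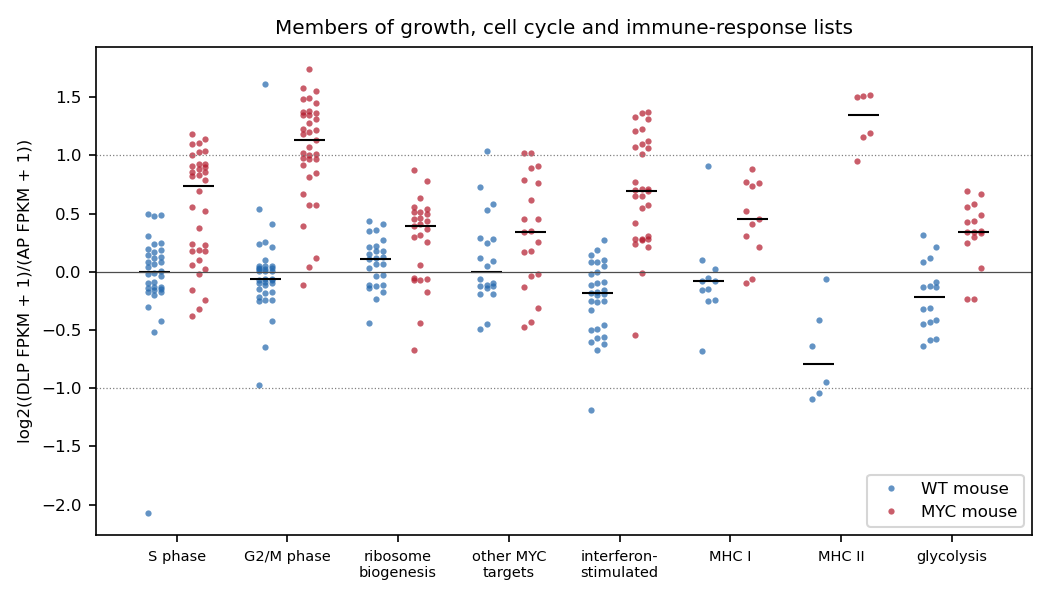
Log2 ratio of DLP over AP (FPKM + 1) for each compared member of 8 lists in the WT mouse (blue) and the MYC mouse (red), with horizontal bars at the list medians and dotted lines at 2-fold. The medians of G2/M phase and MHC class II lie at 1.13 and 1.34 in MYC and at -0.06 and -0.80 in WT.

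Interferon-stimulated genes were higher in MYC DLP in 11 of 30 cases and lower in none, beside 4.54% and 3.49% of all genes. In WT DLP 1 of the 30 was lower, beside 1.31%. The median log2 ratio of the list was 0.69 in MYC and -0.18 in WT, and all 30 had a MYC ratio above the WT ratio. Against WT AP, the median for MYC DLP was 1.45. Usp18, which removes the ubiquitin-like protein Isg15, was at 14.3 FPKM in MYC DLP and 4.92 FPKM in MYC AP, and at 0.93 and 0.82 FPKM in WT. Oas1a, a sensor of double-stranded RNA, had a ratio of 2.89-fold (counting interval 2.55 to 3.27) in MYC, and Ifit1, which binds foreign RNA caps, 2.72-fold (2.51 to 2.95). Isg15 itself was at 56.4 and 22.2 FPKM in MYC DLP and AP. Irf1, the most abundant member, had a log2 ratio of -0.54 in MYC and -0.67 in WT. No gene of the 11 for MHC class I presentation passed 2-fold in MYC, where the median was 0.45, and B2m, the invariant light chain, was at 2385 FPKM in DLP and 2560 FPKM in AP.

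MHC class II genes were higher in MYC DLP in 5 of 6 cases, beside 4.54% of all genes, with a median log2 ratio of 1.34. In WT DLP 2 of 6 were lower, beside 1.31% of all genes, with a median of -0.80. Cd74, the invariant chain, was at 856.5 FPKM in MYC DLP, 299.4 FPKM in MYC AP, 228.8 FPKM in WT DLP and 470.8 FPKM in WT AP. The order of the lobes was thus opposite in the mice, and H2-Ab1 and H2-Aa, chains of the class II molecule, had MYC log2 ratios of 1.52 and 1.50 against -1.09 and -0.95. Markers of antigen-presenting cells moved with these genes.

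Macrophage and monocyte markers were higher in MYC DLP for 13 of 16 genes and lower for none, beside 4.54% and 3.49% of all genes. In WT DLP 10 of 16 were lower and none higher, beside 1.31% and 3.85%. The median log2 ratio was 1.17 in MYC and -1.21 in WT, 1.12 for MYC DLP against WT AP, and the list summed to 805.0 FPKM in MYC DLP, 320.6 FPKM in MYC AP, 144.6 FPKM in WT DLP and 351.0 FPKM in WT AP. Lyz2, the lysozyme of macrophages, was at 131.6, 48.0, 11.8 and 46.0 FPKM in that order of libraries. Ctss, a protease of antigen-presenting cells, had ratios of 2.88-fold (counting interval 2.74 to 3.02) in MYC and 0.309-fold (0.282 to 0.338) in WT. Cd14, a receptor for lipopolysaccharide, had log2 ratios of 1.53 and -0.21, and Laptm5, a lysosomal protein of blood cells, 1.43 and -1.14. In a bulk library, fewer cells of a type and less RNA per cell cannot be told apart.

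T and NK cell markers were higher in MYC DLP for 7 of 9 genes compared of 14, beside 4.54% of all genes. The median log2 ratio of the list was 1.38 in MYC against 0.14 in WT. Gzmb, a granule protease, was at 24.7 FPKM in MYC DLP and 5.80 FPKM in MYC AP, and Nkg7 at 12.8 and 3.42 FPKM. For neutrophils 3 of 6 markers entered the comparison, and S100a8 was at 18.0 FPKM in MYC DLP and 2.26 FPKM in MYC AP and S100a9 at 16.6 and 0.95 FPKM, while Ly6g was listed at 0 in both. The list summed to 39.1 FPKM in MYC DLP and to between 2.24 and 4.11 FPKM in the other 3 libraries. The B cell marker Cd79a had a ratio of 3.20-fold (2.51 to 4.08), and the B cell list summed to 9.41 FPKM in MYC DLP and 2.45 FPKM in MYC AP. The part of these cells in the differences of interferon-stimulated and MHC genes was not tested.

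Most fibroblast genes went the other way. Of 20 fibroblast and matrix genes, 11 were lower and none higher in MYC DLP, beside 3.49% and 4.54% of all genes. The median log2 ratio of the list was -1.12 in MYC against -0.18 in WT, where none passed 2-fold. The MYC median was -0.38 with WT AP on the AP side. Dpt, dermatopontin of the matrix, was at 11.4 FPKM in MYC DLP, 64.0 FPKM in MYC AP, 42.4 FPKM in WT DLP and 49.1 FPKM in WT AP. Pi16, a marker of adventitial fibroblasts, had a log2 ratio of -2.14, Pdgfra, a growth factor receptor of fibroblasts, -1.73, and Col6a1, a collagen VI chain, -1.63. Dcn, the proteoglycan decorin, was at 453.9 FPKM in MYC DLP against between 999.3 and 1155 FPKM in the other AP and DLP libraries. For Dpt and Dcn these 3 libraries lay close together, whereas Col6a1 was at 90.5 FPKM in MYC AP and at 44.9 FPKM in WT AP. Col1a1 and Col3a1, collagen chains named here after their values were seen, were higher in MYC DLP than in either WT lobe. Col1a1 was at 44.8 FPKM in MYC DLP, 60.1 FPKM in MYC AP, 10.6 FPKM in WT DLP and 13.8 FPKM in WT AP. Col3a1 was at 94.0, 112.6, 22.3 and 29.0 FPKM in that order. Fn1, fibronectin, had the only MYC log2 ratio above 0 on the list, 0.74.

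For smooth muscle genes the median was -0.61 in MYC and 0.77 in WT on the log2 scale, and -0.06 in MYC with WT AP on the AP side. Only 1 of 10 was lower in MYC DLP and none higher, beside 3.49% and 4.54% of all genes. In 8 the MYC ratio was at least 2-fold below the WT ratio, beside 5.15% of all genes. Myh11, the smooth muscle myosin heavy chain, was at 18.5 FPKM in MYC DLP, 42.8 FPKM in MYC AP, 43.2 FPKM in WT DLP and 24.8 FPKM in WT AP. Cnn1, a calponin, had log2 ratios of -0.89 and 1.21, and Des, desmin, -0.85 and 0.96. None of 12 endothelial genes passed 2-fold in MYC, with a median of -0.37 beside -0.48 in WT, and Pecam1, an adhesion protein of vessels, was at 0.885-fold. The adipocyte and the Schwann cell and nerve lists had 1 and 2 genes compared, none past 2-fold.

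**Figure D4:**
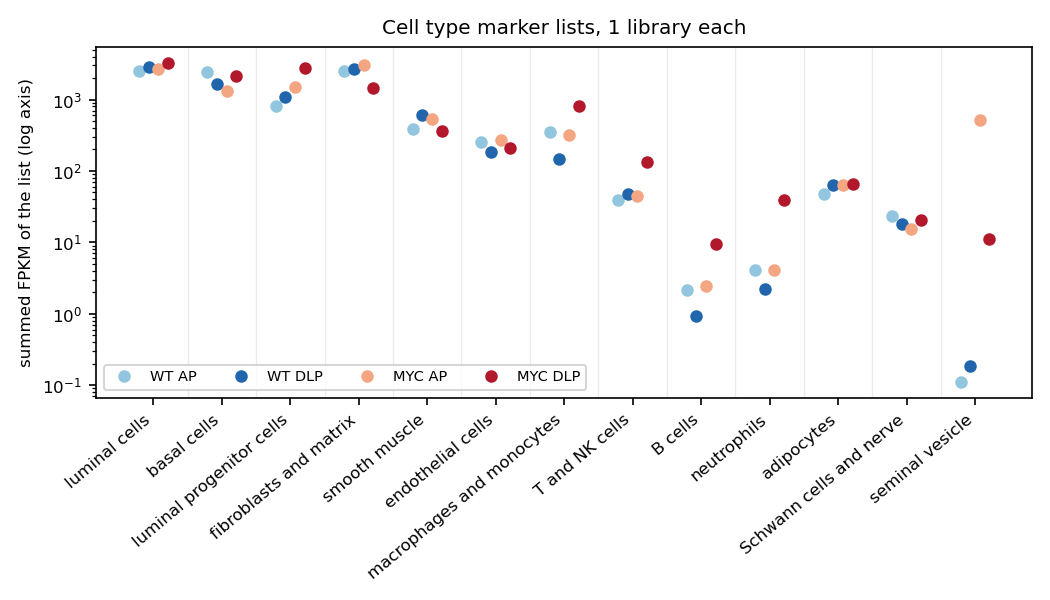
Summed FPKM of each cell type marker list, all members in the table, on a log axis in the AP and DLP libraries of the WT and the MYC mouse, 1 point per library. MYC DLP is the highest point for macrophages, T and NK cells, B cells and neutrophils. It is the lowest for the sums of fibroblasts and smooth muscle, though not for each of their members. MYC AP alone holds over 500 FPKM of seminal vesicle genes.

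Epithelial markers were abundant in both MYC lobes. Krt8 and Krt18, the luminal keratins, were at 531.1 and 610.7 FPKM in MYC DLP and at 387.9 and 447.6 FPKM in MYC AP, and the luminal list summed to 3256 and 2638 FPKM. Of its 10 genes, 1 was higher and 3 lower in MYC DLP, beside 4.54% and 3.49% of all genes. The lower ones were Agr2, a chaperone of secretory cells, at 64.3 FPKM in MYC DLP against 214.9 FPKM in MYC AP, 468.9 FPKM in WT DLP and 228.1 FPKM in WT AP, Prom1, which encodes CD133, with a log2 ratio of -1.69, and the peptidase Dpp4, with -1.34. Cldn3, a tight junction protein, was higher with 1.05. The median of the list, 0.22, shifted with that of all genes to -0.02 with equal sums of FPKM and to -0.23 relative to Krt8 and Krt18, and stayed above it.

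The 8 basal markers were at a median log2 ratio of 0.59 in MYC and -0.31 in WT. Of these 2 were higher in MYC DLP, beside 4.54% of all genes. Krt5, the basal keratin, was at 244.9 FPKM in MYC DLP, 109.2 FPKM in MYC AP, 114.7 FPKM in WT DLP and 108.9 FPKM in WT AP. Krt17 had log2 ratios of 1.13 and -0.68, and at 874.7 FPKM in WT AP was above the 705.7 FPKM of MYC DLP. Trp63, the basal transcription factor p63, and Dst, a hemidesmosome linker, had MYC log2 ratios of -0.48 and -0.20. The list summed to 2171 FPKM in MYC DLP and 2414 FPKM in WT AP, and its median was 0.22 with WT AP on the AP side. Markers of luminal progenitor cells were higher in MYC DLP in 4 of 8 cases, beside 4.54% of all genes. The medians of this list were 0.83 in MYC and 0.68 in WT. Wfdc2, a secreted protease inhibitor, was at 179.7 FPKM in MYC DLP, 49.6 FPKM in MYC AP, 34.6 FPKM in WT DLP and 13.7 FPKM in WT AP, and so was higher in DLP in both mice. Clu, the extracellular chaperone clusterin, had log2 ratios of 1.14 and 0.59. Other members, named here after their values were seen, had lower ratios in MYC than in WT. Psca, a surface antigen of these cells, was at 160.8 FPKM in MYC DLP and 237.7 FPKM in MYC AP, with log2 ratios of -0.56 in MYC and 0.78 in WT, while the keratin Krt4 had 0.59 and 0.93.

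Secretory and metabolic lists differed less. No gene of 23 for chaperones of the endoplasmic reticulum and the unfolded protein response passed 2-fold in MYC, with a median log2 ratio of -0.16 against 0.37 in WT. Hspa5, the chaperone BiP, was at 784.4 FPKM in MYC DLP and between 1133 and 1245 FPKM in the other AP and DLP libraries, and Pdia6, a disulphide isomerase, was at 160.1 and 220.6 FPKM in DLP and AP of MYC and at 540.1 and 269.2 FPKM in WT. Ero1l, an oxidase of the same compartment, was inverted, with 0.64 and -1.19. None of 16 glycolysis genes passed 2-fold in either mouse, and the median was 0.34 in MYC, or -0.04 relative to Krt8 and Krt18 where all genes were at -0.33, and -0.22 in WT. Pkm, pyruvate kinase, was at 251.7 FPKM in MYC DLP and between 141.3 and 191.3 FPKM in the other AP and DLP libraries, and at 311.9 FPKM in MYC VP.

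Of 21 polyamine, citrate and zinc genes, 1 was higher and 1 lower in MYC DLP, a share close to the 4.54% and 3.49% of all genes. Smox, which oxidises spermine, was at 84.6 FPKM in MYC DLP, 24.7 FPKM in MYC AP, 23.6 FPKM in WT DLP and 44.4 FPKM in WT AP. Slc30a2, a zinc exporter, was at 3.68 FPKM in MYC DLP and between 15.2 and 18.6 FPKM in the other AP and DLP libraries, a MYC ratio of 0.242-fold (counting interval 0.212 to 0.275). Cholesterol and fatty acid synthesis genes had medians of 0.05 in MYC and 0.44 in WT. The MYC median followed that of all genes below 0 with equal sums (-0.15), without the 20 most abundant genes (-0.11) and relative to Krt8 and Krt18 (-0.34). Scd1 and Scd2, fatty acid desaturases, had WT log2 ratios of 1.12 and 1.22 against 0.11 and 0.33 in MYC.

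Some positional identity genes had the same order of lobes in both mice. Of 13 Hox genes compared of 16, 2 were lower in MYC DLP, Hoxd13 and Hoxd11, which pattern the posterior body and the urogenital tract, beside 3.49% of all genes, and in WT DLP 1 was higher and 2 were lower. The medians were -0.59 in MYC and -0.14 in WT. Among Hox genes of at least 10 FPKM on average they were -0.42 in MYC and 0.88 in WT, so the WT value turned. Hoxd11 was at 2.15 FPKM in MYC DLP, 5.81 FPKM in MYC AP, 1.65 FPKM in WT DLP and 6.64 FPKM in WT AP, with log2 ratios of -1.11 and -1.53, and Hoxd13 had -1.14 and -0.90. Hoxb13, a partner of the androgen receptor, was higher in DLP in both, with 0.76 and 1.25. The DLP and AP of the MYC mouse therefore kept the order seen in WT for these 3 genes, unlike for Pbsn, and Hoxa10 had -0.42 in MYC and 0.88 in WT.

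Immediate early genes, which respond within minutes to tissue dissociation, were abundant in all 4 libraries. Of 17 compared, 1 was lower in MYC DLP and none higher, beside 3.49% and 4.54% of all genes. The medians of the list were -0.16 in MYC and -0.36 in WT. Egr1 was at 890.5 FPKM in MYC DLP, 1893 FPKM in MYC AP, 1161 FPKM in WT DLP and 1757 FPKM in WT AP, lower in DLP in both mice. Zfp36, which degrades cytokine transcripts, had log2 ratios of -0.60 and -0.47.

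**Figure D5:**
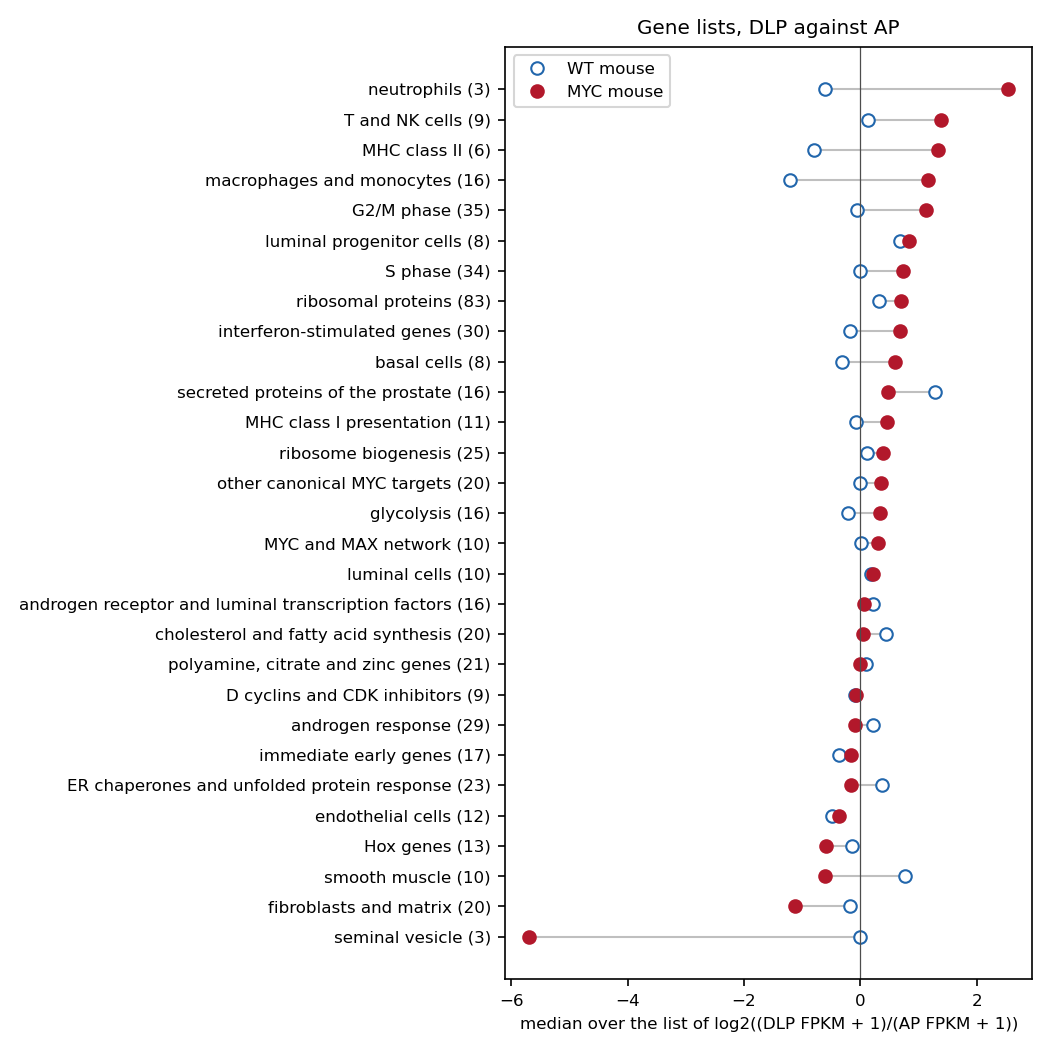
Median log2 ratio of DLP over AP (FPKM + 1) for each list with at least 3 compared genes, in the WT mouse (open) and the MYC mouse (filled), ordered by the MYC median, with the number of genes in parentheses. Macrophages, MHC class II and smooth muscle lie on opposite sides of 0 in the mice, and the median of all genes was 0.07 in MYC and 0.10 in WT.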

How the data were processed

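Bulk RNA-seq of AP and DLP from 1 MYC and 1 WT mouse was analysed, with VP used for the filter and for context. Libraries were stranded, made from poly(A) RNA and sequenced as single reads. Reads were mapped with STAR and genes quantified with Cufflinks by the authors, and the deposited values are FPKM. The submitters' processing notes name bcl2fastq 2.18 and the build mm10. Sums of 374085 to 483143 FPKM per library and fractional values showed that they are not read counts, so no count model was run. Genotype and lobe were taken from the sample titles. Of the symbols, 24344 matched RefSeq (GRCm38.p6) directly and 473 more by synonym, and coordinates and promoters are from there.

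Ratios were log2((FPKM + 1) ratio) for genes of at least 1 FPKM on average over the 6 libraries, with a 2-fold threshold. Depth was estimated from genes with 1 exon and 1 transcript, longer than 600 bases and under 0.3 FPKM, where FPKM times the length less 200 bases falls in steps. Between 34.4% and 48.3% of 147 to 191 such values per library lay within 3% of a read of a whole number, so the depths are estimates. GENCODE M1 transcript lengths, found for 90.0% of genes compared, gave the reads behind the intervals.

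The genes and lists were chosen with earlier results of these data known. Named were Myc, per list up to 4 members past 2-fold or differing 2-fold between mice and the most abundant member, and the 10 highest and 10 lowest MYC ratios and differences between mice among genes of at least 10 FPKM on average over the 4 libraries. A few genes met these rules but are not reported here. Under the last 2 rules, 61 small RNA genes, 90 unnamed models and 9 near-identical copies of 5389 genes were left out. Alternatives were other scalings, pseudocounts, filters and thresholds. The script was tested on simulated libraries. Software was Python 3.11.15 with pandas 2.3.3, numpy 2.4.6, matplotlib 3.10.9 and scipy 1.17.1.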

Additional observations from a re-analysis of the deposited data

Results flagged for a closer look

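The MYC and the WT lobe ratios went in opposite directions for several items, with 1 library on each side, and none of these differences was tested. By the median over a list, MYC minus WT was 2.37 on the log2 scale for macrophages and monocytes, 3.15 for neutrophils, 2.14 for MHC class II and -1.38 for smooth muscle (whose MYC median was -0.06 with WT AP on the AP side), each with medians of opposite sign in the mice. The neutrophil value rests on 3 genes that were low in WT, and S100a9 and Csf3r passed the filter only through MYC DLP. S100a9 had the same sign in both mice, 3.17 in MYC and 0.49 in WT. For S100a8 the WT counting interval of the ratio, 0.198 to 1.22, included no change. Among named genes, the MYC minus WT difference was -8.07 for Itln1 and -5.49 for Pbsn, which were higher in WT DLP and lower in MYC DLP. It was 3.80 for Aqp3, a water and glycerol channel, 3.43 for Serpinb2, a protease inhibitor, and 3.37 for Dhrs9, a retinol dehydrogenase, which were lower in WT DLP and higher in MYC DLP. Aqp3 was at 41.0 FPKM in MYC DLP, 8.34 FPKM in MYC AP, 7.59 FPKM in WT DLP and 25.6 FPKM in WT AP.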

How the results depend on the processing

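The limits are 1 library per lobe and genotype, FPKM that hide the reads behind a value, and MYC AP with seminal vesicle transcripts. Each lobe ratio pairs DLP with AP of the same animal. With 1 animal per genotype, no paired test across animals was possible, and no test was made. Counts are given as genes higher and lower in MYC DLP, then in WT DLP, then for the MYC ratio against the WT ratio. A 4-fold threshold left 90 and 96, 87 and 28, and 127 and 118 genes, fewer by construction. A mean of at least 10 FPKM left 222 and 157, 235 and 62, and 217 and 280, fewer because fewer genes were compared. A pseudocount of 10 gave 151 and 128, 112 and 43, and 184 and 164, since it shrinks ratios. With 0.1 the count in WT DLP was 736 and 299, and 970 genes had a lower ratio in MYC. Equal sums of FPKM, which scale DLP down, gave 363 genes higher in MYC DLP and 276 lower in WT DLP. With WT AP in place of MYC AP, added after seeing the data, 1071 genes were higher in MYC DLP, and the median of the seminal vesicle list turned from -5.69 to 1.86, since that list is nearly absent from WT AP. The median of fibroblasts and matrix was -0.38 there, of secreted proteins 2.83, of G2/M phase 1.96 and of interferon-stimulated genes 1.45, and the cause was not tested. S phase fell to a median of 0.06 among genes of at least 10 FPKM. Without immune and stromal marker genes, also added after seeing the data, 532 and 420 genes remained past 2-fold in MYC. Of 1340 values for named genes under the alternatives, 1317 moved by less than 1.5-fold and 23 by more, 22 of these with the pseudocount of 0.1. For named genes the other settings only rescale whole libraries, which shifts all genes about alike by less than 1.5-fold. Few values could therefore move there, and the count is little measure of robustness.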

Other observations

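A list of 27 genes of squamous epithelium was put together after Ly6d, Aqp3 and Serpinb2 had been seen among the leading genes, so that it is no independent result. Of 20 genes compared, 13 were higher and none lower in MYC DLP, beside 4.54% and 3.49% of all genes. In WT DLP 1 was higher and 5 lower, beside 3.85% and 1.31%. The median log2 ratio was 1.33 in MYC and -0.10 in WT. Krt6a, a keratin of stratified and wounded epithelium, was at 88.3 FPKM in MYC DLP, 11.9 FPKM in MYC AP, 7.33 FPKM in WT DLP and 7.74 FPKM in WT AP. Krt16 was at 83.5, 34.1, 47.0 and 65.4 FPKM in that order, and Ivl, the cornified envelope protein involucrin, at 67.3, 28.7, 17.2 and 78.2 FPKM. WT AP was thus above MYC DLP for Ivl and lay between the MYC lobes for Krt16, but was below both for Krt6a. Sprr1a, the most abundant member, was lower in DLP in both mice, with log2 ratios of -0.36 in MYC and -1.05 in WT.

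Among the genes called, 20 of the 561 higher and 30 of the 432 lower in MYC DLP were small RNA genes, which poly(A) libraries of this kind measure poorly. Apart from small RNA genes, 4 genes were at 100 FPKM or more in 1 of the 4 libraries and listed at 0 in another, Svs4, Svs5, Defb28 and 9530053A07Rik, the last at 4177 and 1456 FPKM in AP and DLP of WT, at 202.4 FPKM in MYC DLP and listed at 0 in MYC AP.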
